A study of Rattus norvegicus with 9 samples.

Results

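Reg1a, Reg3a, Reg3b and Reg3g encode the rat Reg proteins, small secreted proteins built around a C-type lectin fold. They were taken by name, and each was measured by 1 probe set that the platform annotation assigns to a single gene, so that they make up 4 of the 14217 genes measured by such probe sets. Each was compared between the diets, and was then set against 3 genes for digestive enzymes of acinar cells, Cpa1, Cela1 and Pnlip, across the 9 arrays. The relative Reg4 had no single-gene probe set and was not analysed here.

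The samples were pancreatic islets of Wistar rats, freed by collagenase digestion after killing. One group of 5 samples came from obese rats that had eaten a cafeteria diet, an energy-dense choice of palatable foods, over 30 days, and the other of 4 came from lean rats given standard chow. Age, sex and feeding state are not in the labels, nor is it said whether a sample pools islets of more than 1 animal, so the spread behind each p-value is that between samples and may be partly technical. RNA of each sample was hybridised to an Affymetrix Rat Genome 230 2.0 array, and values are log2 expression after RMA, on which a difference of 1 is a doubling.

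Reg genes were found as genes switched on in regenerating islets and in the inflamed pancreas. In the healthy pancreas Reg1a, the gene of lithostathine or pancreatic stone protein, is mainly a product of acinar cells, which secrete digestive enzymes and surround the islets. Reg3b, first named pancreatitis-associated protein, and its relatives Reg3a and Reg3g belong to the Reg3 branch. This branch is known for induction by tissue injury and by interleukin-6 type cytokines acting through Stat3, and in the mouse gut Reg3g is a bactericidal lectin. Reg transcripts in an islet preparation can come from acinar cells carried along as well as from islet cells, and in such bulk samples fewer cells of a type and less RNA per cell cannot be told apart.

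The 4 genes lie side by side on chromosome 4 in the order Reg3b, Reg3a, Reg1a and Reg3g, interrupted only by the pseudogene Reg3b-ps1 and 1 locus for a long non-coding RNA. Their promoters, from 250 bases before to 50 bases after the start of transcription, are shown because Reg1a, Reg3a and Reg3b stood out in the same sample and Reg3g did not. The sequences are those of RefSeq, build GRCr8, each 5′ to 3′ along its gene, and all 4 members were matched by gene identifier. Capitals mark the STAT-type motif TTCNNNGAA and the TATA-type motif TATAAA, searched on both strands. The windows are chr4:112450216-112450515 on the plus strand for Reg1a, chr4:112430147-112430446 on the plus strand for Reg3a (the first listed of its 2 starts), chr4:112419526-112419825 on the plus strand for Reg3b and chr4:112484689-112484988 on the minus strand for Reg3g.
Reg1a: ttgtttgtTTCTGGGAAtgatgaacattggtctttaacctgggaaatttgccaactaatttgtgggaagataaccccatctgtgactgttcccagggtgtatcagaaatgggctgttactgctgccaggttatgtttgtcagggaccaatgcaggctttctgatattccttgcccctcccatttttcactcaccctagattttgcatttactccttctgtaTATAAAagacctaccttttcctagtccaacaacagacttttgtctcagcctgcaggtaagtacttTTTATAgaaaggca
Reg3a: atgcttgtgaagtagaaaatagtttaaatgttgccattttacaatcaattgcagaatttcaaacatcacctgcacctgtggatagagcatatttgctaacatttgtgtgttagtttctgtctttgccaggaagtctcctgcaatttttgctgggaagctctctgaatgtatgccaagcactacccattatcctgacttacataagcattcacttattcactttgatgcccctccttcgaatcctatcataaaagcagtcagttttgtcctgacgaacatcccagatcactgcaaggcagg
Reg3b: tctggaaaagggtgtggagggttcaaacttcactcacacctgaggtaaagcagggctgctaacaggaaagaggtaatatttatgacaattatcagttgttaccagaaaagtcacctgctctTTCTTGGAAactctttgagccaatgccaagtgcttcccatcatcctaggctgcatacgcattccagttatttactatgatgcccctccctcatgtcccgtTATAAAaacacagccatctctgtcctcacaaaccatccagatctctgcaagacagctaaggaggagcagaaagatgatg
Reg3g: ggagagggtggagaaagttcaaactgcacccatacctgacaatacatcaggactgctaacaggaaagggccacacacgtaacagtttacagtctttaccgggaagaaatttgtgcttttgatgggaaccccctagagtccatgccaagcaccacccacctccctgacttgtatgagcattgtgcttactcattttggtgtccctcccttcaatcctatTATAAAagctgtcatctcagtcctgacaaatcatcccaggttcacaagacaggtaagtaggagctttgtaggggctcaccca

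TTCNNNGAA occurred once in the window of Reg1a, beginning 242 bases before the start, and once in that of Reg3b, beginning 129 bases before the start. It had no match in the windows of Reg3a and Reg3g, and it occurred in 8.87% of 33465 promoter windows of the same length. TATAAA stood 29 bases before the start in Reg1a and in Reg3b and 32 bases before it in Reg3g, with another match on the opposite strand of Reg1a and none in Reg3a (14.2% of all windows). The short motif TGGGAA, which in Reg1a overlaps the STAT-type match, was present in all 4 windows (25.7% of all windows), and CANNTG, the E-box, in those of Reg1a, Reg3a and Reg3b (72.1% of all windows). In global alignments with a cost of 5 to open and 1 to extend a gap, the windows of Reg3a, Reg3b and Reg3g were identical at 66.8% to 69.0% of the aligned bases. The window of Reg1a matched these 3 at 46.3% to 52.7%, within the range of 41.4% to 53.1% that the 4 Reg windows reached against those of Cpa1, Cela1 and Pnlip. These costs were chosen after the identities under milder ones (2 and 0.5) had been seen, and the separation of Reg1a from the Reg3 genes depended on them. Under the milder costs the Reg3 windows were identical at 72.9% to 78.2%, Reg1a matched them at 68.3% to 77.4%, and the Reg windows matched the enzyme windows at 64.6% to 79.1%, so that the 3 ranges overlapped. These matches are descriptions of the letters and were not set against the expression values.

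The islet label held on these arrays. All 13 measured islet markers of a list of 15 were brighter than the array median on every array. Their lowest value was 8.15, for Pdx1, beside array medians of 5.28 to 5.32. Their mean level was 12.2 to 12.4 in cafeteria and 12.3 to 12.4 in chow samples. Ins2, an insulin gene, had 14.2 in the lowest and highest cafeteria sample and 14.1 to 14.2 in chow. Correlations between arrays over the 31042 tested probe sets were 0.979 to 0.994. In 2 chow samples groups of probe sets stood apart from all other arrays. Chow replicate 3 did so with markers of immune cells, at a list score of 0.90 against -0.334 to 0.114 elsewhere, and chow replicate 1 with markers of ductal cells, at 0.654 against -0.289 to 0.304 elsewhere. Neither sample carried the highest value of any Reg gene. By limma 0 of 31042 probe sets passed an adjusted p of 0.05 (0.00%), and 1789 had an unadjusted p under 0.05 (5.76%).

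Between the diets none of the 4 Reg genes passed the test. Of the 5 cafeteria samples, replicate 4 alone carried high levels of Reg3b, Reg3a and Reg1a, and the other 4 overlapped the chow samples. The groups overlapped in all 4 genes, beside 2.00% of all probe sets whose groups did not. The differences between the group means of Reg3b, Reg3a and Reg1a depended on that 1 sample, and Reg3g was low in all 9 samples.

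Reg3b, the pancreatitis-associated protein gene, had log2 values of 3.82, 3.76, 4.04, 6.73 and 4.30 in cafeteria replicates 1 to 5, against 4.25, 4.37, 3.90 and 3.79 in the chow samples. The value of 6.73 was 2.37 above the next array, a 5.16-fold gap, whereas the other 8 arrays lay within 0.603 of each other. The means were 4.53 ± 1.25 (SD, n = 5) in cafeteria and 4.08 ± 0.275 (n = 4) in chow samples, a difference of 0.45 with a 95% interval from -0.72 to 1.62 (limma SE 0.53, adjusted p = 0.902; exact permutation p = 0.802). Without cafeteria replicate 4 the difference was -0.10, with an interval from -0.46 to 0.26. The groups overlapped with and without this sample.

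Reg3a, the second pancreatitis-associated gene of the rat, had 3.77, 3.78, 3.97, 6.55 and 4.30 in cafeteria replicates 1 to 5, against 3.75, 3.95, 3.56 and 3.79 in chow. Cafeteria replicate 4 stood 2.25 above the next array, a 4.75-fold gap, and the next was cafeteria replicate 5. The means were 4.47 ± 1.18 (SD, n = 5) in cafeteria and 3.76 ± 0.162 (n = 4) in chow samples. The difference of 0.71 had an interval from -0.38 to 1.80 (limma SE 0.49, adjusted p = 0.849; exact permutation p = 0.23), and it was 0.19 without cafeteria replicate 4, with an interval from -0.11 to 0.49. Cafeteria replicates 3, 4 and 5 lay above every chow sample, replicate 3 only just.

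Reg1a, which encodes lithostathine, had 5.17, 4.86, 4.70, 6.62 and 4.80 in cafeteria replicates 1 to 5, against 4.94, 4.97, 5.04 and 4.58 in chow. Here too cafeteria replicate 4 was the highest array, by 1.45 or 2.73-fold, and the other cafeteria samples were interspersed with chow. The means were 5.23 ± 0.796 (SD, n = 5) in cafeteria and 4.88 ± 0.204 (n = 4) in chow samples, a difference of 0.35 with an interval from -0.41 to 1.10 (limma SE 0.34, adjusted p = 0.882; exact permutation p = 0.619). Without cafeteria replicate 4 the means were 4.88 ± 0.203 in cafeteria and 4.88 in chow, and the interval of the difference reached from -0.29 to 0.29.

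Reg3g, the member known as a bactericidal lectin in the mouse, had 3.86, 4.07, 4.23, 4.33 and 4.02 in cafeteria replicates 1 to 5, against 4.22, 3.93, 3.97 and 3.97 in chow. Its highest value was again in cafeteria replicate 4, but by only 0.107 over cafeteria replicate 3. The means of 4.10 ± 0.182 (SD, n = 5) in cafeteria and 4.02 ± 0.133 (n = 4) in chow differed by 0.08, with an interval from -0.15 to 0.31 (limma SE 0.11, adjusted p = 0.91; exact permutation p = 0.468). This is the narrowest interval of the 4, a fold between 0.901 and 1.24.

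**Figure D1:**
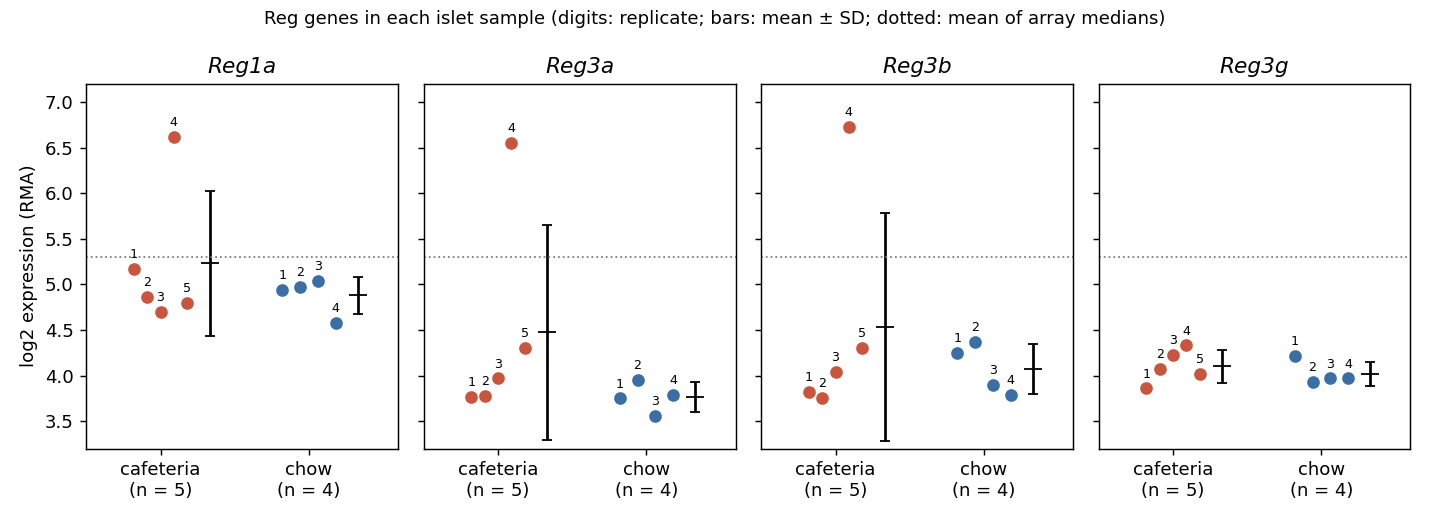
Log2 expression of the 4 Reg genes in each sample, cafeteria (5 samples) left of chow (4 samples), with replicate numbers, means and SD. Cafeteria replicate 4 stands at 6.62 for Reg1a, 6.55 for Reg3a and 6.73 for Reg3b, above the dotted mean of the array medians, while all other points lie below it.

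**Figure D2:**
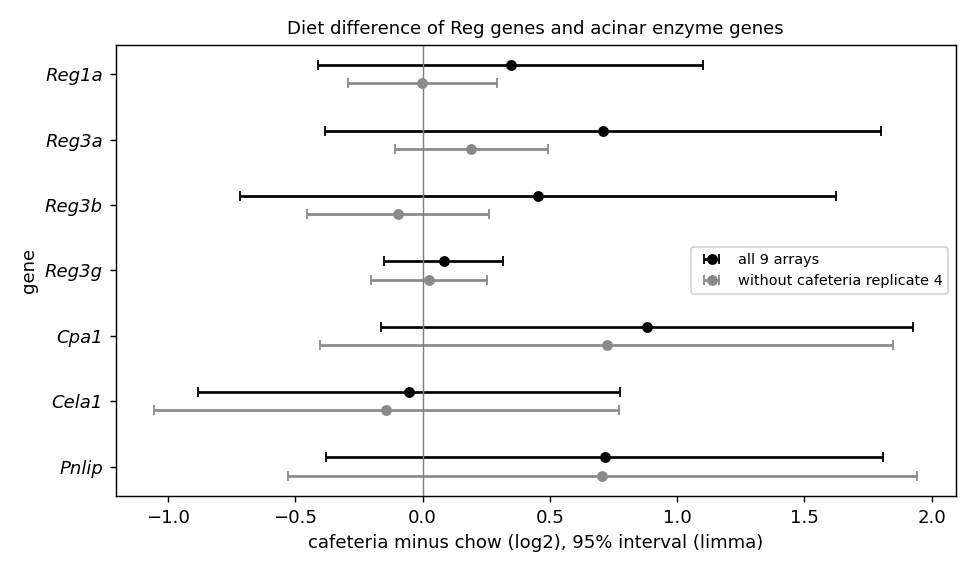
Cafeteria minus chow difference on the log2 scale with its 95% interval from limma, for all 9 arrays (black) and without cafeteria replicate 4 (grey). All intervals include 0, and those of Reg1a, Reg3a and Reg3b shrink when that sample is left out.

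Outside cafeteria replicate 4 the Reg signals were dim. The arrays' medians were 5.28 to 5.32, and Reg1a, Reg3a and Reg3b exceeded the median of their array on 1 of 9 arrays and Reg3g on 0 of 9. In cafeteria replicate 4 Reg3b stood at the 70.9th percentile of all probe sets of that array, Reg1a at the 69.4th and Reg3a at the 68.4th. On the remaining arrays Reg3a and Reg3b did not pass the 24.8th and 27.5th percentile and Reg1a not the 47.9th. RMA values carry no detection call, so low values here may not show expression at all, and folds against them are compressed. Reg3a, Reg3b and Reg3g are related in sequence, and how far their probes also bind each other's transcripts, or that of the pseudogene, was not tested.

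Across all genes, a single array standing so far above the others was uncommon. Of 31042 probe sets, 152 had a highest value more than 1 above the next array, of which 60 belonged to chow replicate 3, 59 to chow replicate 1 and 19 to cafeteria replicate 5. Cafeteria replicate 4 held 3 of them, and these were the probe sets of Reg3b, Reg3a and Reg1a. By the size of this gap Reg3b ranked 10th, Reg3a 14th and Reg1a 66th of all probe sets, and Reg3g 10952nd. The next probe sets highest in cafeteria replicate 4 were those of the matrix protein gene Postn (gap 0.991), the acinar granule membrane gene Gp2 (0.968) and Lcn2 (0.882), and no other exceeded 0.5. Postn was picked after its values were seen, as was this ranking.

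**Figure D3:**
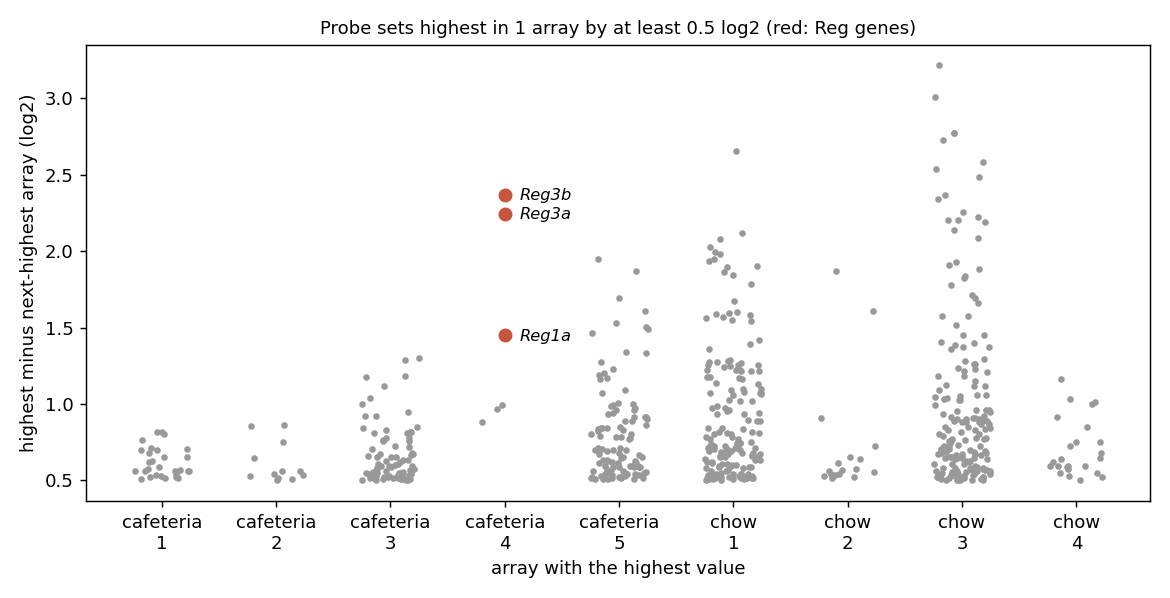
Each point is a probe set placed at the array in which it was highest, with the distance to the next-highest array in log2 on the vertical axis, for distances of at least 0.5. Red points are Reg genes: in cafeteria replicate 4 Reg3b (2.37), Reg3a (2.25) and Reg1a (1.45) are the 3 probe sets above 1.

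Of the 3 acinar enzyme genes, Cpa1 was highest in the same sample as the Reg genes, and Cela1 and Pnlip were not. Cpa1, a carboxypeptidase gene, had 7.17, 7.37, 7.40, 7.55 and 5.11 in cafeteria replicates 1 to 5, against 6.43, 6.63, 5.53 and 5.56 in chow. Cela1, an elastase gene, had 8.25, 7.09, 7.29, 7.63 and 6.12 in cafeteria, against 7.94, 7.53, 6.94 and 6.90 in chow. Pnlip, the pancreatic lipase gene, had 7.79, 7.65, 8.44, 7.44 and 5.72 in cafeteria, against 7.44, 7.14, 6.25 and 5.94 in chow. Cafeteria replicate 4 was the highest array for Cpa1 by 0.153 and held neither the highest Cela1, which was in cafeteria replicate 1, nor the highest Pnlip, which was in cafeteria replicate 3. Cafeteria replicate 5 had the lowest value of all 3 enzyme genes. None of the enzyme genes passed the test between the diets: Cpa1 differed by 0.88 (SE 0.47), Cela1 by -0.05 (SE 0.37) and Pnlip by 0.72 (SE 0.49), with adjusted p by limma of 0.844, 0.988 and 0.849. Without cafeteria replicate 5 the difference was 1.33 for Cpa1 (unadjusted p = 0.000342, adjusted p = 0.93 by limma), 0.24 for Cela1 and 1.14 for Pnlip. That sample is named here after its values were seen. Leaving out the lowest cafeteria value raises the difference by itself, so this unadjusted p is no test of the diets. The difference of Pnlip was 0.46 without cafeteria replicate 3 and 0.46 without chow replicate 4.

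None of the 12 relations between a Reg gene and an enzyme gene passed. Pearson's r over the 9 arrays was positive in all 12, between 0.0822 (Reg3a with Cela1) and 0.455 (Reg1a with Cpa1), with an exact permutation p of at least 0.212 and an adjusted p of 0.836 over the 12. Spearman's rho lay between -0.183 and 0.633, the highest being Reg1a with Cela1 (exact permutation p = 0.076, adjusted p = 0.904). Without the 2 samples farthest from the median of the enzyme gene r was -0.123 to 0.594. Without cafeteria replicate 4 it was -0.496 to 0.57, and it was below 0 for Reg3a and Reg3b with each of the 3 enzyme genes. The enzyme genes followed each other, at r = 0.925 for Cpa1 with Pnlip, 0.701 for Cela1 with Pnlip and 0.67 for Cpa1 with Cela1 (n = 9 arrays, given as a description).

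**Figure D4:**
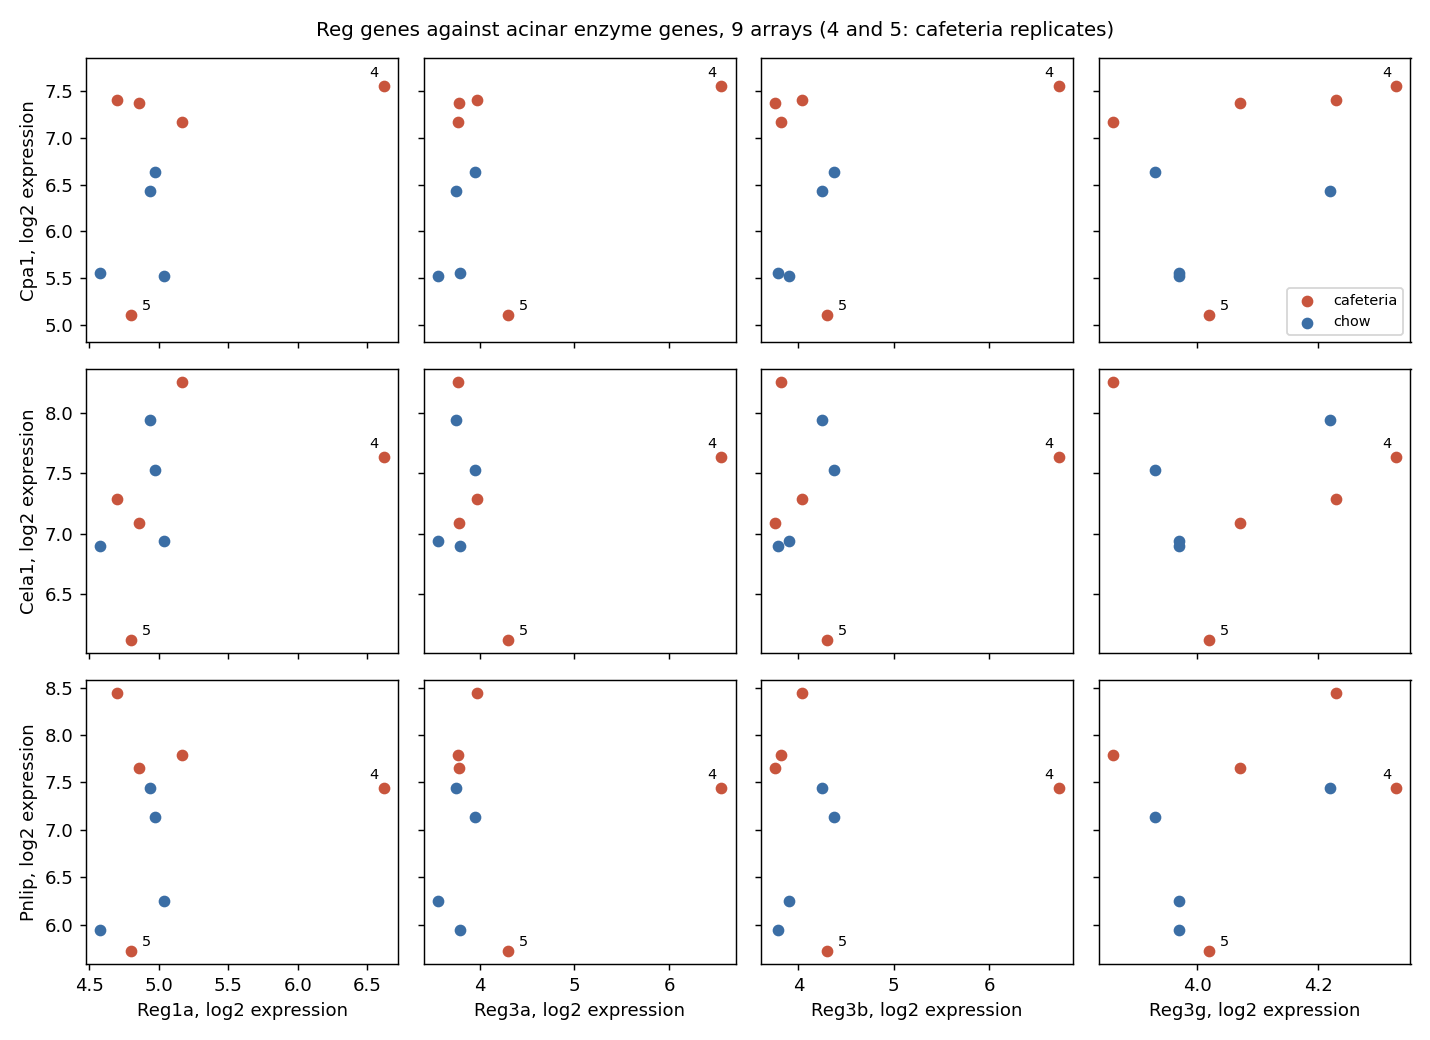
Log2 expression of each Reg gene (horizontal) against Cpa1, Cela1 and Pnlip (vertical) in the 5 cafeteria and 4 chow samples. Cafeteria replicate 4 lies far to the right for Reg1a, Reg3a and Reg3b. Its Cela1 and Pnlip lie within the range of the other arrays, and its Cpa1 is the highest, by 0.153. Cafeteria replicate 5 lies at the bottom of every panel.

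The enzyme genes belong to a wider list of acinar genes. Of its 28 measured members 25 had a positive difference between the diets, with a median of 0.48, beside 52.8% and 0.00792 over all probe sets, and 0 passed the test. An unadjusted p under 0.05 by limma was reached by 4 of the 28 members, beside 5.76% of all probe sets. The brightest members of this list outside the 3 enzyme genes were Prss1 (trypsin, a difference of 0.47), Cpb1 (0.58), Amy2a3 (amylase, 0.05) and Cela2a (0.56). The list score, each member's distance from its own mean over the 9 arrays, averaged, was 0.51, 0.153, 0.53, 0.502 and -0.787 in cafeteria replicates 1 to 5, against 0.167, -0.0194, -0.484 and -0.572 in chow. The mean level of the list was 5.20 to 6.52 in cafeteria and 5.42 to 6.16 in chow samples, and 6 of the 28 members were below the array median on every array. By this score cafeteria replicate 4 was 3rd of 9, close to cafeteria replicates 1 and 3. It was the highest array for 7 of the 28 members, beside 6.46% of all probe sets. These were Cpa1, the chymotrypsinogen gene Ctrb1 (8.16), the lipase-related gene Pnliprp2 (6.68), the elastase gene Cela3b (7.11), the zymogen granule genes Sycn (7.13) and Gp2 (5.78), and Dnase1 (4.74). Cafeteria replicates 3 and 1 were each the highest array for more members than that, among them Pnlip, Prss1 and Cpb1 in replicate 3 and Cela1 and Cela2a in replicate 1. The part of acinar RNA in the Reg values of cafeteria replicate 4 was not tested. Against this score Pearson's r was 0.446 for Reg1a, 0.316 for Reg3a, 0.33 for Reg3b and 0.442 for Reg3g, with exact permutation p of 0.238, 0.528, 0.493 and 0.235 (adjusted p over the 4 at least 0.476). With the score of the 3 enzyme genes as a covariate in limma, the diet difference was 0.23 for Reg1a, 0.66 for Reg3a, 0.35 for Reg3b and 0.05 for Reg3g.

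By the scores of the ductal, immune and islet lists, cafeteria replicate 4 was neither the highest nor the lowest array. No list of stromal or matrix genes was scored. The 15 probe sets with the largest gaps in this array included those of the matrix genes Postn (6.31), Fn1 (7.83), Col1a1 (8.70) and Col18a1 (6.09). These were picked after their values were seen. Counted from the highest, cafeteria replicate 4 was 3rd of 9 for ductal markers (-0.0304), 6th for immune markers (-0.145) and 7th for islet markers (-0.0324). Its RNA quality measure, the 3-prime minus 5-prime difference of the actin and Gapdh control probe sets, was 1.32, within the range of 1.21 to 1.80 over all arrays. Between the diets, cafeteria minus chow, the immune list had negative differences in 21 of 21 measured members (median -0.30, 0 passed, 9 with an unadjusted p under 0.05 by limma). The ductal list had them in 10 of 13 (median -0.22, 0 passed) and the islet list in 9 of 13 (median -0.04, 0 passed). Over all probe sets 52.8% of differences were positive, the median was 0.00792, and 5.76% had an unadjusted p under 0.05 by limma. Chow replicate 3 had the highest immune score (0.90) and chow replicate 1 the highest ductal score (0.654). The mean level of the immune list was 5.58 to 5.90 in cafeteria and 5.90 to 6.82 in chow samples, and that of the ductal list 6.69 to 6.84 in cafeteria and 6.58 to 7.52 in chow samples. The part of these cells in the diet differences was not tested.

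The correlations among the Reg genes depended on cafeteria replicate 4. Pearson's r was 0.977 for Reg3a with Reg3b, 0.929 for Reg1a with Reg3b and 0.908 for Reg1a with Reg3a, and 0.507 to 0.658 for Reg3g with the others. Of the 6 pairs only Reg3a with Reg3b passed (exact permutation p = 0.00696, adjusted p = 0.0418). Its Spearman's rho was 0.567 (exact permutation p = 0.121, adjusted p = 0.625), and rho over the 6 pairs was -0.15 to 0.567. Without cafeteria replicate 4 this r was 0.592 (exact permutation p = 0.114, adjusted p = 0.683), that of Reg1a with Reg3a -0.374 and that of Reg1a with Reg3b 0.0309. For Reg3g it was -0.427 with Reg1a, 0.122 with Reg3a and 0.246 with Reg3b. None of the 6 pairs passed without that sample.

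The genes with patterns most like the Reg genes were the 5 with the highest r across the 9 arrays. For Reg3b they were Lcn2 (r = 0.935), Tnc (0.902), Kcnip3 (0.845), Mmp12 (0.80) and Spink1 (0.796), and for Reg3a Kcnip3 (0.886), Lcn2 (0.882), Metrnl (0.854), Tnc (0.851) and Mmp12 (0.844). For Reg1a they were Kcnip3 (0.864), Tnc (0.854), Lcn2 (0.833), Fgl2 (0.829) and Katnbl1 (0.824). All of these probe sets were highest in cafeteria replicate 4, but the brightest probe sets of Kcnip3, Katnbl1 and Spink1 were highest in other arrays, as were 2 of the 4 probe sets of Fgl2. The brightest probe set of Spink1 was nearly flat, at 4.28 to 4.48, and its remaining probe set was highest in cafeteria replicate 4 (4.62). Lcn2, the gene of the iron-sequestering acute-phase protein lipocalin 2, had 4.87, 4.56, 5.18, 6.55 and 5.13 in cafeteria replicates 1 to 5, against 5.03, 5.67, 5.02 and 4.86 in chow. Without cafeteria replicate 4 r was below 0.5 for 10 of these 15 pairs, from -0.171 for Spink1 with Reg3b to 0.487 for Tnc with Reg3b. Kcnip3 then had 0.0404 with Reg3b, 0.373 with Reg3a and 0.239 with Reg1a, and Lcn2 had 0.384 with Reg3a and 0.0723 with Reg1a. The other 5 pairs were Lcn2 with Reg3b (0.806), Mmp12, a macrophage elastase gene, with Reg3a (0.836) and Reg3b (0.519), Metrnl with Reg3a (0.794) and Fgl2 with Reg1a (0.82). For Reg3g, whose range over all arrays was small, the nearest were Hspa9 (0.926), Dpt (0.914), Pgam5 (0.872), Rnf128 (0.868) and Gja1 (0.862), a set with no gene in common with the others. For Hspa9, Dpt and Pgam5 these were not the brightest probe sets.

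A further list held genes of the signals known to switch on Reg genes, and Lcn2, whose product often rises with them. By its score cafeteria replicate 4 was 3rd of 9 (0.0613). Lcn2 is part of this score, and it had 6.55 in that sample beside a mean of 5.21 over the 9 arrays. The score without Lcn2 was not computed, so this rank does not describe the inducing signals alone. The other cafeteria samples had -0.161 to 0.00298 and the chow samples -0.0497 to 0.118. The part of such signals in the Reg values of this sample was not tested. Of 20 measured members of a list of 23, 0 passed the test, 5 had positive and 15 negative differences, and the median was -0.07, beside 0.00792 over all probe sets. Cafeteria replicate 4 was the highest array for 2 members, Lcn2 and Ifngr2, beside 6.46% of all probe sets. Il6, the cytokine gene, had 3.61 in cafeteria replicate 4, against 3.33 to 3.60 in the other cafeteria samples and 3.41 to 4.33 in chow, with the highest value in chow replicate 1. Stat3, the transcription factor gene, had 8.70 in cafeteria replicate 4, within the range of 7.39 to 9.18 over all arrays. Socs3, a feedback target of Stat3, had its lowest value of all arrays there, 4.08, close to 4.11 in chow replicate 4. Both Il6 and Socs3 were dim. They exceeded the array median on 0 of 9 arrays and did not pass the 25.9th and 33.7th percentile, so their values may not show expression. Il6st, the shared receptor subunit gp130, had 9.80 in that sample and 9.62 to 9.90 over all arrays, and Extl3, a candidate Reg receptor, had 7.69 and 7.51 to 8.11. Il6st, Stat3 and Extl3 had further probe sets, of which 2 of 3 for Il6st and the other one of Stat3 had a diet difference opposite in sign to the brightest. Il22ra1 had no single-gene probe set.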

How the data were processed

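The deposited table holds log2 values per probe set. The authors made these log2 values with RMA, which corrects the background, equalises the distributions of the arrays and summarises probes; R 2.7.0 and affy 2.0.1 are also listed in the submitters' processing notes, with no role given. Control probe sets (57 of 31099) were left out, and 20826 of the 31042 others had a single gene by the platform annotation. The brightest probe set stood for a gene. The fit was limma 3.58.1 (R 4.3.3), lmFit with eBayes, cafeteria minus chow, two-sided, p-values adjusted by Benjamini-Hochberg over these 31042 probe sets, threshold 0.05. It was tested on simulated data. Exact permutation tests were two-sided, over all splits of the arrays for a difference and all pairings for a correlation, adjusted over 12 or 6 relations. Named genes were the members, the enzyme genes, fixed signalling genes and, per member, the 5 genes of highest r among single-gene probe sets with an SD of at least 0.2. Promoter windows were aligned with Biopython 1.88 under 2 sets of gap costs, the stricter set chosen after the identities under the milder one were seen. Precision is limited by the 9 arrays, with a median standard error of 0.0981 log2. Members and lists were chosen with earlier results of these data known. Scaling, a filter on dim probe sets, the variance model, array weights, covariates and each sample were varied.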

Additional observations from a re-analysis of the deposited data

Results flagged for a closer look

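In 13 genes, the members, the enzyme genes, fixed signalling genes and Ins2, each group was searched for a sample far from the others by Dixon's ratio, the gap to the nearest sample over the range of the group. Of the 26 groups 5 held such a sample. The nominal rate of about 1 in 20 is for independent groups of normally spread values. The rate over all probe sets was not determined, so the count was not tested against chance. In the cafeteria group replicate 4 was far above the others for Reg1a (ratio 0.755), Reg3a (0.809) and Reg3b (0.82). In the same group replicate 5 was far below the others for Cpa1 (0.844). In the chow group replicate 1 was above the others for Reg3g (0.861), a gap of only 0.248 log2. Reg1a, Reg3a and Reg3b are neighbours in the genome and their values come from the same array, so their 3 ratios are not independent.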

How the results depend on the processing

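No paired analysis was possible because the labels give no replicate numbers shared between the groups. By limma 0 probe sets passed an adjusted p of 0.05 in every alternative run, including each sample left out, and 899 to 3413 had an unadjusted p under 0.05. An adjusted p of 0.10 was applied to the main fit only, where 0 passed. The smallest adjusted p by limma in the alternative runs was 0.0578, without chow replicate 2, which is under 0.10. With array weights the diet difference was 0.75 for Reg1a, 1.27 for Reg3a, 1.08 for Reg3b and 0.16 for Reg3g, still without passing, whereas that of Cela1 turned to 0.13. A Reg3b difference of 1.08 requires a greater weight on cafeteria replicate 4 (6.73). The other cafeteria values were 3.76 to 4.30 and the lowest chow value was 3.79. The larger weighted differences therefore rest on that 1 sample as well. None of the 4 members was among the brighter probe sets, so that filter gave no value for them, and each member has 1 probe set, so averaging probe sets changed nothing. With single samples left out the difference ranged from -0.000817 to 0.479 for Reg1a, 0.191 to 0.885 for Reg3a, -0.0977 to 0.645 for Reg3b, 0.025 to 0.148 for Reg3g, 0.713 to 1.33 for Cpa1, 0.458 to 1.14 for Pnlip and -0.297 to 0.237 for Cela1, and the lowest value of each Reg gene was that without cafeteria replicate 4.

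With single samples left out r ranged from 0.0719 to 0.409 for Reg1a with Pnlip, -0.192 to 0.486 for Reg3a with Cpa1, -0.496 to 0.21 for Reg3a with Cela1, -0.176 to 0.171 for Reg3a with Pnlip, -0.23 to 0.466 for Reg3b with Cpa1, -0.0892 to 0.351 for Reg3b with Cela1, -0.104 to 0.214 for Reg3b with Pnlip and -0.0364 to 0.518 for Reg3g with Cela1. Among the Reg genes it ranged from -0.374 to 0.934 for Reg1a with Reg3a, 0.0309 to 0.963 for Reg1a with Reg3b, -0.427 to 0.661 for Reg1a with Reg3g, 0.592 to 0.986 for Reg3a with Reg3b, 0.122 to 0.754 for Reg3a with Reg3g and 0.246 to 0.763 for Reg3b with Reg3g. The adjusted p of Reg3a with Reg3b was over 0.05 without any of 6 samples, all 5 cafeteria samples and chow replicate 4 (0.0582 to 0.683), and Reg3b with Reg3g passed only without chow replicate 2 (r = 0.701). As Spearman's rho, Reg3a with Cela1 was -0.183, Reg3a with Pnlip -0.0167, Reg3b with Pnlip -0.167, Reg1a with Reg3a -0.133, Reg1a with Reg3g -0.15 and Reg3a with Reg3b 0.567. Without the 2 farthest samples r was -0.123 for Reg1a with Pnlip, -0.0201 for Reg3b with Pnlip, -0.597 for Reg1a with Reg3a, -0.305 for Reg1a with Reg3b, -0.734 for Reg1a with Reg3g and 0.446 for Reg3a with Reg3b. Reg3a with Pnlip was -0.0787 with diet means removed, Reg3a with Cela1 -0.0407 with RNA quality removed, and Reg3a with Reg3b 0.977 with an adjusted p of 0.0525 after repeated quantile normalization. The cause of these turns was not tested, except that leaving out cafeteria replicate 4 removes the 1 high value of Reg1a, Reg3a and Reg3b. The dimness of the other values limits what they can show. Without that sample, left out after its values were seen, 2.63% of probe sets had groups that did not overlap, and the wide acinar list had a median of 0.31, with 24 of 28 positive. With the milder gap costs, run first, the identities of all 6 pairs of Reg promoters moved upward, by most for Reg1a with Reg3b (77.4% against 46.3%).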

Other observations

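The probe set with the largest gap in cafeteria replicate 4 after those of the Reg genes was that of Postn, chosen after its values were seen. Postn, the gene of periostin, had 3.78, 4.54, 5.08, 6.31 and 5.30 in cafeteria replicates 1 to 5, against 4.46, 4.47, 5.32 and 4.83 in chow. It did not pass the test between the diets by limma (difference 0.23, SE 0.42, adjusted p = 0.945).

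Gp2, a zymogen granule membrane gene of the acinar list, had 4.81, 4.20, 4.80, 5.78 and 3.96 in cafeteria replicates 1 to 5, against 4.76, 4.07, 4.13 and 3.79 in chow.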
